A study of Mus musculus with 4 samples.

Results

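The 5 uroplakin genes Upk1a, Upk1b, Upk2, Upk3a and Upk3b and 4 further genes of the urothelium, Trp63, Krt5, Ly6d and Psca, were followed in sorted kidney cells of mouse embryos that lack the splicing factors Esrp1 and Esrp2. They were taken by gene symbol from a table of 38201 genes, and all 9 were found. They were selected on the difference in FPKM between the DKO and control libraries, so their levels and differences are a description and carry no test. RNA-Seq was done on 4 libraries of DBA-FITC-positive cells, which were sorted from the kidneys of embryos aged 18.5 days. In 2 libraries (DKO) the embryos were Esrp1 -/- and Esrp2 -/-, and in 2 libraries (control) they were Esrp1 +/+ and Esrp2 -/-, so both groups lack Esrp2 and the comparison concerns the loss of Esrp1 on that background. The alleles were null in the whole embryo, each library pooled RNA of 3 embryos, and DBA, a plant lectin, was the only marker of the sort. Values are FPKM, sequenced fragments scaled to the exon length of the gene and the size of the library.

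Urothelium is the stratified epithelium that lines the renal pelvis, ureter and bladder. Its superficial umbrella cells carry plaques of uroplakins, in which the tetraspanin Upk1a pairs with Upk2 and the tetraspanin Upk1b pairs with Upk3a or Upk3b, and pairing helps the proteins to leave the endoplasmic reticulum. The basal layer holds cells that express Trp63, the p53-related transcription factor p63, and keratin 5. Upk1b and Upk3b are also known from mesothelium, the lining of body cavities and of organ surfaces, and the kidney collecting duct, which shares its ureteric bud origin with the ureter lining, is not a usual site of uroplakin plaques.

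Of the 9 genes, 4 have a promoter in the RefSeq table for GRCm38.p6, namely Upk1a, Upk3a, Upk3b and Krt5. Each promoter covers 250 bases before and 50 after the start of the gene. Since p63 is the product of Trp63, the promoters were searched on both strands for the p53-family half-site of 10 bases. This half-site is a part of the full element that p53 and p63 bind, which was not searched for. The half-site was present in Upk3a and Krt5 and not in the windows of Upk1a and Upk3b, and 8.36% of all 32851 promoters hold it. Capitals mark the match within 30 bases, read 5′ to 3′ on the strand of the gene, at chr15:85017118-85017147 (plus strand) for Upk3a and chr15:101712981-101713010 (minus strand) for Krt5.
Upk3a: gagaggggcgGGGCATGCCCttgctggtga
Krt5: gctgccccccAGGCATGCCCagcccactaa

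The match begins 13 bases before the start of Upk3a and 95 bases before that of Krt5. A match is a description of letters and does not show that a factor binds. Other motifs were searched on both strands too. The GATA factor motif, spelled AGATAA, was found in the Upk3a promoter and in 11.2% of all promoters. The short motif of Klf factors, spelled CACCC, was found in Upk1a, Upk3b and Krt5 and in 57.5% of all promoters. The Grhl motif, spelled AACCGGTT, was in 0 of the 4 and in 0.146% of all promoters, and the Foxa motif, spelled TGTTTAC, in 0 of the 4 and 3.65%. The TATA box, spelled TATAAA, was in 0 of the 4 and in 13.6% of all promoters. None of these matches overlaps a p53-family half-site in Upk3a or Krt5.

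The table gives no read totals, but the steps between its lowest values put the libraries at about 17100000 and 18700000 fragments for DKO replicates 1 and 2 and 8720000 and 18700000 for control replicates 1 and 2. Control replicate 1 is thus the shallowest library, at 0.509 times the depth of DKO replicate 1. Genes of the mitochondrial genome made up 19.1% and 18.6% of summed FPKM in the DKO pair, against 25.5% and 23.2% in the controls. Esrp1 stood at 7.97 ± 0.963 FPKM in the DKO and 29.2 ± 3.15 FPKM in the control libraries (SD, n = 2 each), and Esrp2 between 0.519 and 1.72 FPKM in all 4 libraries. The 15 listed genes of collecting duct and ureteric epithelium summed to 1036 to 1514 FPKM per library, so the labelled cell type was present in each. Of 9 leukocyte genes found by symbol, 9 were below both controls in both DKO libraries (sums of 509 and 487 against 1951 and 933 FPKM), and of 10 stroma genes 10 were above both controls (sums of 207 and 340 against 97.2 and 138.8 FPKM). Of 10 smooth muscle genes of the ureter wall 6 were above (73.8 and 91.5 against 37.0 and 71.1 FPKM). In these lists limma called 0 genes, and at an unadjusted p under 0.05 there were 8 lower leukocyte genes, 6 higher stroma genes, 2 higher smooth muscle genes and 2 higher collecting duct genes. Whether the mix of cells has a part in the values that follow was not tested. In such pooled cells, fewer cells of a type and less RNA per cell cannot be told apart.

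Most of the 9 genes were lower in the DKO cells. In 6 of 9, Upk2, Upk3a, Trp63, Krt5, Ly6d and Psca, both DKO libraries lay below both controls, which held for 22.6% of the 18884 genes that reached more than 0.1 FPKM on average in a group, while both lay above the controls in 0 of 9, against 20.8% of all genes. The average was at least 2-fold lower in 6 of 9 (9.91% of all genes), at least 5-fold lower in 4 of 9 (3.18%) and at least 2-fold higher in 1 of 9 (6.75%), which is Upk3b. All 9 passed the filter at 0.1 FPKM, and each had a control average above 1 FPKM, against 5 of 9 with a DKO average above 1 FPKM. Krt5, with a DKO average of 0.0828 FPKM, passed only through its control average. The median difference of the 9 genes was -0.86 on the log2(FPKM + 0.5) scale, DKO minus control, and that of all genes -0.0092. On this scale the change of low genes is understated.

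**Figure D1:**
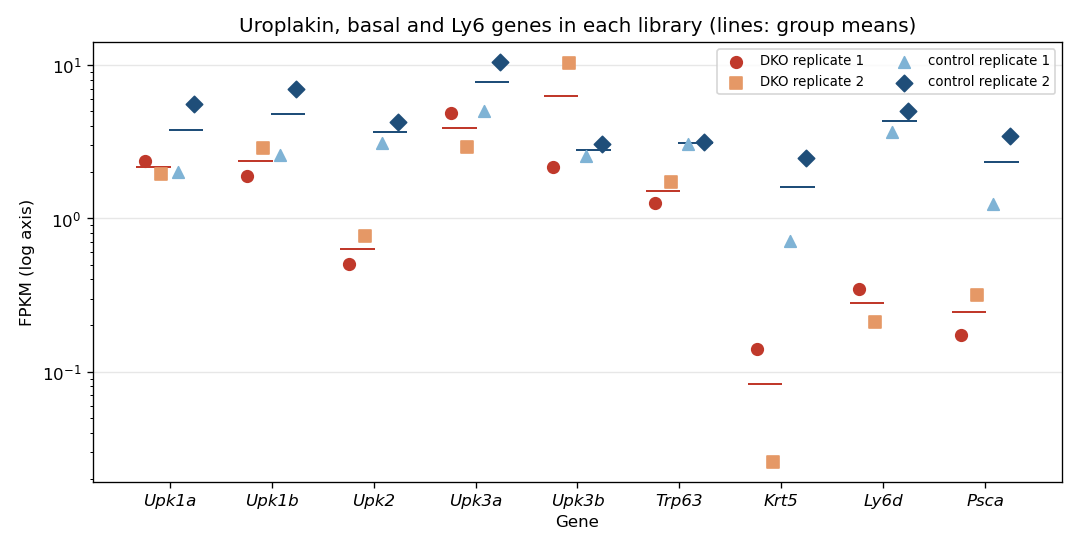
FPKM of the 9 genes on a log axis, with a point for each of the 4 libraries and short lines at the group means. Upk2, Krt5, Ly6d and Psca stand far apart between the groups, Upk1a and Upk1b overlap, and Upk3b is high at 10.4 FPKM in DKO replicate 2 alone.

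Across all genes, limma called 4 (0.0212% of those tested), 1 lower (0.0053%) and 3 higher (0.0159%), where a call needed a p under 0.05 after Benjamini-Hochberg adjustment and a change of at least 2-fold, and with values rescaled to TPM 0 lower and 6 higher. With any 1 library left out it called 0. Of the 9 genes 0 were called and 5 had an unadjusted p under 0.05 (all lower, against 7.35% of all genes lower and 3.35% higher), and since the contrast was used to choose them nothing is read from these counts. For 2 libraries against 2, the smallest p of an exact two-sided permutation test is 0.333.

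Upk1a and its partner Upk2 make up the first uroplakin pair, and they differed in how the groups compared. Upk1a was at 2.38 and 1.94 FPKM in the DKO pair, against 2.03 and 5.60 FPKM in the controls. Its groups overlap, and only control replicate 2 stands apart. Upk2, a small single-pass protein of the plaque, was at 0.504 and 0.763 FPKM in the DKO pair, against 3.10 and 4.26 FPKM in the controls. Both DKO values lie well below both controls, and the lowest control is 4.07 times the highest DKO value. The averages were 0.634 ± 0.183 and 3.68 ± 0.818 FPKM (SD, n = 2 each), a 5.81-fold lower level in the DKO cells and a difference of -1.88 on the log2 scale (SE 0.277). For Upk1a the difference was -0.57 (SE 0.462), which became 0.0693 without control replicate 2. The FPKM of Upk1a was 4.72 and 2.54 times that of Upk2 in the DKO pair, against 0.653 and 1.31 times in the controls, so the ratio within the pair was higher in both DKO libraries than in either control.

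Upk1b, the tetraspanin of the other pair, was at 1.89 and 2.90 FPKM in the DKO pair, against 2.61 and 6.98 FPKM in the controls. The groups overlap, since DKO replicate 2 lies above control replicate 1. Upk3a, its single-pass partner in umbrella cells, was at 4.90 and 2.94 FPKM in the DKO pair, against 5.01 and 10.5 FPKM in the controls. The groups do not overlap, but DKO replicate 1 and control replicate 1 are almost equal, at a ratio of 1.02. The averages were 2.39 ± 0.714 against 4.79 ± 3.09 FPKM for Upk1b and 3.92 ± 1.39 against 7.74 ± 3.85 FPKM for Upk3a (SD, n = 2 each). The differences were -0.76 (SE 0.479) and -0.85 (SE 0.415) on the log2 scale, and without control replicate 2 they shrank to -0.13 and -0.35. Unlike in the first pair, the ratio of Upk1b to Upk3a overlapped between the groups, at 0.385 and 0.985 in the DKO pair, against 0.520 and 0.667 in the controls.

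Upk3b, which shares the Upk1b partner with Upk3a and is also a mesothelial transcript, went the other way on average. It was at 2.15 and 10.4 FPKM in the DKO pair, against 2.55 and 3.09 FPKM in the controls. DKO replicate 1 is the lowest of the 4 libraries and DKO replicate 2 the highest, so the groups overlap. The averages were 6.27 ± 5.82 and 2.82 ± 0.379 FPKM (SD, n = 2 each), and the difference of 0.70 (SE 0.681) on the log2 scale turned to -0.32 without DKO replicate 2. Without DKO replicate 2, 8 of 9 genes were below both controls, Upk3b included (31.2% of all genes). By its single annotated transcript of 3530 bases, the DKO libraries held about 130 and 686 fragments of Upk3b and the controls about 78.6 and 204.

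The sum over the uroplakins was 11.8 and 18.9 FPKM in the DKO pair, against 15.3 and 30.4 FPKM in the controls, which overlap. Without Upk3b the sums were 9.67 and 8.54 against 12.7 and 27.3 FPKM, and the groups no longer overlap. Upk3b made up 18.2% and 54.9% of the uroplakin sum in the DKO pair, against 16.7% and 10.2% in the controls. Upk2 made up 4.26% and 4.03% of it in the DKO pair, against 20.3% and 14.0% in the controls, a share that was lower in both DKO libraries than in either control. Upk3a was the most abundant uroplakin in both controls and in DKO replicate 1, with 32.8%, 34.4% and 41.5%, but took 15.5% in DKO replicate 2.

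**Figure D2:**
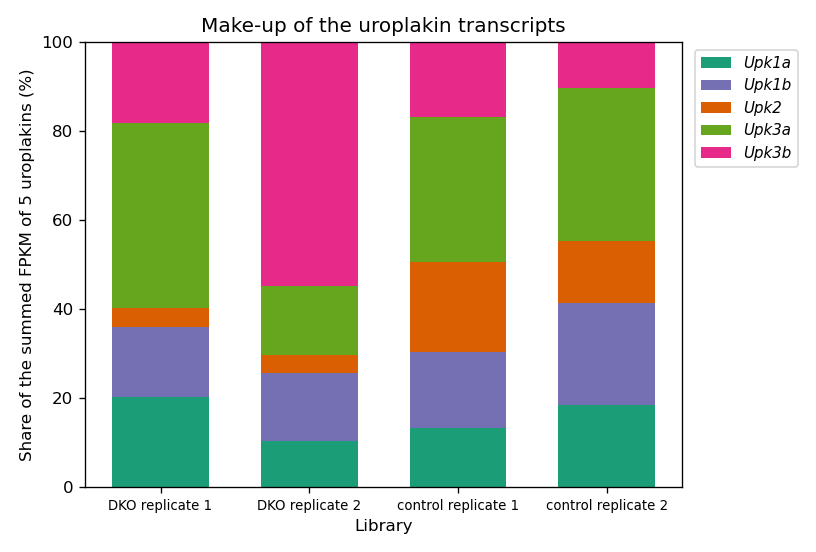
Share of each uroplakin in the summed FPKM of the 5 uroplakins, in percent, with a stacked bar for each library. Upk3b fills 54.9% of the bar of DKO replicate 2 and at most 18.2% of the others, and the Upk2 segment is smaller in both DKO libraries.

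Genes of the mesothelium were set beside Upk3b, since it marks that lining as well as urothelium. Msln, which encodes the surface protein mesothelin, was at 1.14 and 5.89 FPKM in the DKO pair, against 0.402 and 0.688 FPKM in the controls. Lrrn4, a leucine-rich repeat protein of mesothelium, was at 0.142 and 2.46 FPKM in the DKO pair, against 0.648 and 0.330 FPKM in the controls. Both have their highest value in DKO replicate 2, as Upk3b does. The value in DKO replicate 2 was 4.82 times that in DKO replicate 1 for Upk3b and 5.19 times for Msln. Upk1b, also known from mesothelium, was highest in control replicate 2, at 6.98 FPKM. Its value in DKO replicate 2 was 1.54 times that in DKO replicate 1.

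Nkain4 (1.88 and 4.86 FPKM in the DKO pair, 2.36 and 1.43 FPKM in the controls) showed the same order of the DKO libraries. Bnc1, which encodes the zinc finger protein basonuclin, was under 0.515 FPKM in every library, and the mucin Muc16 was at 0.135 and 0.430 FPKM in the DKO pair and listed at 0 in the controls. Lrrn4, Nkain4, Bnc1 and Muc16 were chosen after their values were seen. In all, 7 of 9 mesothelium genes were highest in DKO replicate 2 (23.2% of all genes tested), and 5 of 9 were more than 2-fold higher there than in DKO replicate 1 (5.69%). The 7 include Wt1 and Rspo1, which were highest there only narrowly. Wt1 was at 38.8 FPKM against 35.6 FPKM in DKO replicate 1, and Rspo1 at 10.438 FPKM against 10.437 FPKM in control replicate 1. The list summed to 110.1 and 123.5 FPKM in the DKO pair and to 92.4 and 88.2 FPKM in the controls, most of it from Aldh1a2 and Wt1, which kidney cells other than mesothelium also express. The part of mesothelial cells in the level of Upk3b was not tested.

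Between DKO and control, 4 of 9 mesothelium genes were above both controls, 0 below, and the median difference was 0.46. Limma called 0 of them, with 1 higher at an unadjusted p under 0.05, which was Aldh1a2, a retinoic acid synthesis enzyme, at 55.3 and 52.5 against 38.3 and 39.8 FPKM (log2 difference 0.46, SE 0.0955, adjusted p = 0.380 from limma). For Msln the log2 difference was 1.64 (SE 0.679), or 0.66 without DKO replicate 2, for Wt1 0.23, for Rspo1 0.0919 and for Gpm6a -0.0267, and the last became 0.10 with values rescaled to TPM.

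**Figure D3:**
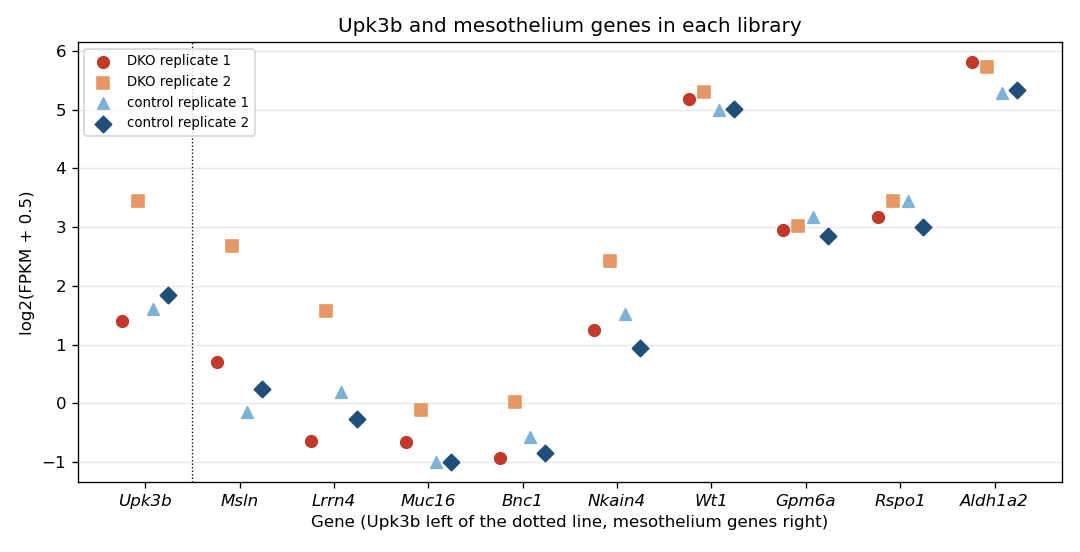
Upk3b (left of the dotted line) and 9 genes of the mesothelium in log2(FPKM + 0.5), with a point for each library. DKO replicate 2 is the highest point for Upk3b, Msln, Lrrn4, Muc16, Bnc1 and Nkain4, whereas the points of Wt1, Gpm6a, Rspo1 and Aldh1a2 lie close together. For Wt1 and Rspo1 it is the highest point only narrowly.

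Trp63, the regulator of basal cells, was at 1.27 and 1.74 FPKM in the DKO pair, against 3.06 and 3.16 FPKM in the controls. The groups do not overlap, and the replicates of each group lie close together. Its averages were 1.50 ± 0.334 and 3.11 ± 0.0706 FPKM (SD, n = 2 each), 2.07-fold lower in the DKO cells, with a difference of -0.86 (SE 0.242) on the log2 scale. Leaving out any 1 library kept this between -1.03 and -0.69. Trp63 has 8 annotated coding transcripts of 1729 to 5366 bases, which the table does not resolve.

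Krt5, the type II keratin of basal cells, was at 0.140 and 0.0256 FPKM in the DKO pair, against 0.717 and 2.49 FPKM in the controls. Both DKO values lie below both controls, and the lowest control is 5.12 times the highest DKO value. By its transcript of 2197 bases these values stand for about 5.26 and 1.05 fragments in the DKO pair, against 13.7 and 102 in the controls, so the DKO level rests on very few fragments. The average was 19.4-fold lower in the DKO cells (0.0828 ± 0.0809 against 1.60 ± 1.26 FPKM; SD, n = 2 each), and the log2 difference was -1.72 (SE 0.481) with the pseudocount of 0.5 and -3.07 with a pseudocount of 0.1. Without control replicate 2 the difference was -1.07. Relative to Trp63 the FPKM of Krt5 was 0.111 and 0.0147 in the DKO pair, against 0.235 and 0.790 in the controls.

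Ly6d and Psca encode GPI-anchored surface proteins of the Ly6 family, and both are found in stratified epithelia. Ly6d was at 0.349 and 0.210 FPKM in the DKO pair, against 3.66 and 5.04 FPKM in the controls. The gap is the widest among the 9 genes, with the lowest control 10.5 times the highest DKO value. Its averages were 0.279 ± 0.0982 and 4.35 ± 0.972 FPKM (SD, n = 2 each), 15.6-fold lower in the DKO cells, and the log2 difference of -2.63 (SE 0.273) was the largest of the 9. Psca, the prostate stem cell antigen, was at 0.173 and 0.314 FPKM in the DKO pair, against 1.24 and 3.44 FPKM in the controls. Its groups are separate too, with the lowest control 3.96 times the highest DKO value, and the average was 9.63-fold lower (log2 difference -1.83, SE 0.448). Without control replicate 2 the difference of Psca was -1.24. The transcripts are short, 744 bases for Ly6d and 860 for Psca, and the DKO values stand for about 4.43 and 2.92 fragments of Ly6d and 2.54 and 5.05 of Psca, against 23.8 and 70.1 and 9.34 and 55.4 in the controls. For transcripts this short these estimates are upper ones, since the fragment length was not subtracted.

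**Figure D4:**
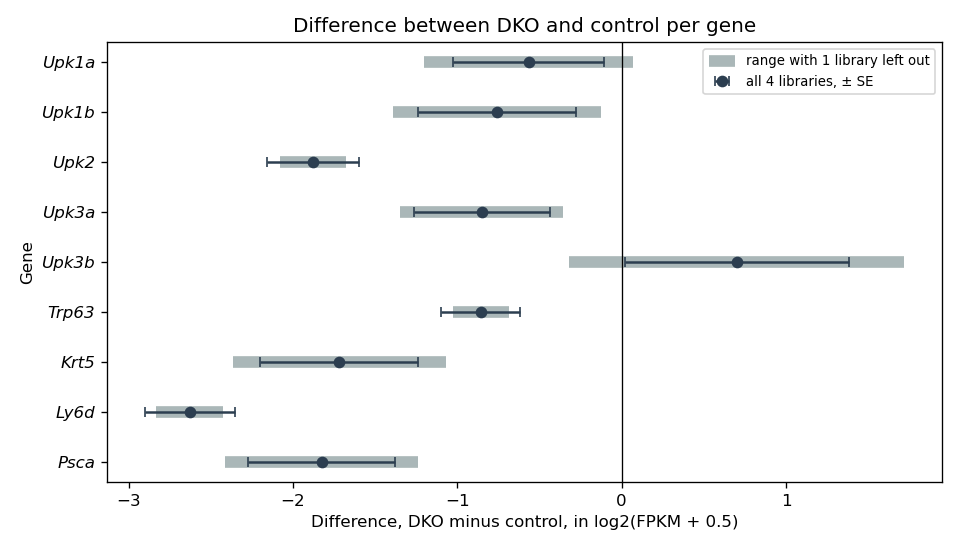
Difference between DKO and control in log2(FPKM + 0.5) for each gene, with points and SE bars from all 4 libraries and grey bars for the range when 1 library is left out. The grey bars of Upk1a (-1.20 to 0.0693) and Upk3b (-0.32 to 1.72) cross 0, and those of the other 7 genes lie below it.

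The controls also differed from each other at these genes. Control replicate 2 was above control replicate 1 in 9 of 9, by more than 1 on the log2 scale in 4 of 9, namely Upk1a, Upk1b, Krt5 and Psca, against 2.54% of all genes. The fold between the controls was 2.76 for Upk1a, 2.68 for Upk1b, 3.48 for Krt5 and 2.77 for Psca, but 1.03 for Trp63 and 1.21 for Upk3b. The DKO replicates showed no common direction, with 5 of 9 genes higher in DKO replicate 2. Control replicate 2 was the highest library in 8 of 9 genes, all but Upk3b. Control replicate 1, the shallowest library, was thus the lower control of each gene, and lying below both controls means lying below that library. Below control replicate 2 alone were 8 of 9 genes in both DKO libraries (36.8% of all genes).

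Among the other genes with an average of at least 1 FPKM, the profile over the 4 libraries most like the mean of Upk1a, Upk1b, Upk2 and Upk3a was that of Slc22a2, an organic cation transporter, at 4.45 and 4.34 FPKM in the DKO pair, against 5.91 and 12.8 FPKM in the controls. Likeness was the Euclidean distance between centred log2 values over 4 libraries, among 14416 genes, and was 0.112 for Slc22a2. The next were Gsta1 (0.139), Slc26a4 (0.163), Gm12993 (0.263) and Slc22a29 (0.276). In each of these control replicate 2 was the highest library, which follows from the matching, since the mean profile also peaks there. Many genes can be this alike over only 4 libraries. The uroplakins that were averaged lay farther from their own mean than these genes did, from 0.481 for Upk3a to 0.988 for Upk2.

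Of 10 genes of uroplakin traffic and assembly, 7 stood above the highest uroplakin value in every library. Of the 10, 5 were below both controls and 2 above, the median difference was -0.23, limma called 0, and at an unadjusted p under 0.05 there was 1, lower. That gene, Mal, a lipid-raft protein of apical transport, was at 60.7 and 63.5 FPKM in the DKO pair, against 79.3 and 108 FPKM in the controls (log2 difference -0.57, SE 0.168, adjusted p = 0.394 from limma). The GTPase Rab11a had a log2 difference of -0.23, its relative Rab8a 0.63 and the SNARE protein Vamp8 -0.25. Rab27b, a GTPase of the uroplakin-carrying vesicles, was at 1.84 and 1.50 FPKM in the DKO pair, against 2.23 and 2.88 FPKM in the controls, both DKO values below both controls. The uroplakin-like gene Upk3bl, next to Upk3b on chromosome 5, was at 0.285 and 0.765 FPKM in the DKO pair, against 0 and 0.963 FPKM in the controls, so its groups overlap. Rab27b and Upk3bl were chosen after their values were seen.

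Transcription factors of the urothelium stood on both sides of the controls. Of 9 listed, 2 were below both controls, 1 above and 6 overlapped, the median difference was 0.0030, and limma called 0, with 0 at an unadjusted p under 0.05 in either direction. Pparg, a nuclear receptor that drives umbrella cell differentiation, was at 2.53 and 2.77 FPKM in the DKO pair, against 3.66 and 4.46 FPKM in the controls (log2 difference -0.53, SE 0.216, adjusted p = 0.488 from limma). The differences were 0.21 for Gata3, 0.28 for Klf5, 0.14 for Elf3 and 0.0030 for the Pparg partner Rxra, all with overlapping groups. Values rescaled to TPM move the median of all genes by 0.122, which is more than the medians of the transcription factor, keratin, adhesion and tetraspanin lists differ from 0. Gata3, at 85.5 to 114.6 FPKM, is also a gene of the collecting duct.

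Keratins of the urothelial layers lay on either side of the controls. Of 10 tested, 2 were below both controls and 4 above, the median difference was -0.0176, limma called 0, and at an unadjusted p under 0.05 there was 1, lower. That gene was Krt20, the keratin of umbrella cells, at 0.355 and 0.355 FPKM in the DKO pair, against 0.829 and 2.02 FPKM in the controls (log2 difference -1.10, SE 0.373, adjusted p = 0.429 from limma). Krt7, Krt8 and Krt18, which the collecting duct also makes, stood at 43.4 to 172.6 FPKM with overlapping groups and differences of -0.33, -0.0234 and -0.0381, and the last 2 became 0.11 and 0.0944 with values rescaled to TPM. Krt23 had a difference of 0.22. Krt14, the partner of Krt5 in basal cells, was at 0.224 and 0.387 FPKM in the DKO pair, against 0 and 0.167 FPKM in the controls, so unlike Krt5 it was not lower in the DKO cells. Of the 4 above, Krt4, Krt14 and Krt17 were at most 0.387 FPKM in any library and listed at 0 in control replicate 1, the shallowest library. These keratins thus stand near the floor. Krt4, Krt14 and Krt17 were chosen after their values were seen. Krt13 and Krt6a were listed at 0 in every library.

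Adhesion genes of basal cells, several of them p63 targets in skin, stood on both sides of the controls. Of 12 tested, 3 were below both controls, 3 above and 6 overlapped, the median difference was 0.0458, and limma called 0, with 1 lower and 1 higher at an unadjusted p under 0.05. Perp, a desmosome protein and known p63 target in mouse skin, was at 6.95 and 5.67 FPKM in the DKO pair, against 8.88 and 10.9 FPKM in the controls (log2 difference -0.61, SE 0.193, adjusted p = 0.403 from limma). Cdh3, P-cadherin, was at 46.6 and 49.5 FPKM in the DKO pair, against 36.1 and 38.2 FPKM in the controls (log2 difference 0.37, SE 0.0990, adjusted p = 0.384 from limma). Itgb4 had a difference of 0.49, Itga6 -0.18 and Itga3 0.23. The basal desmosomal cadherins were at the bottom of the table, with Dsg3 listed at 0 and Dsc3 at most 0.0296 FPKM in every library.

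The tetraspanins, the family of Upk1a and Upk1b, showed no common direction. Of 27 tested, 9 were below both controls, 8 above and 10 overlapped, the median difference was -0.0041, and limma called 0, with 4 lower and 3 higher at an unadjusted p under 0.05. The lowest was Cd53, a leukocyte tetraspanin, at 4.45 and 4.70 FPKM in the DKO pair, against 17.6 and 8.97 FPKM in the controls (log2 difference -1.37, SE 0.334, adjusted p = 0.380 from limma). It lay on the side of the leukocyte genes. Tspan8, an epithelial tetraspanin, had a difference of 0.46, and the abundant Cd63, Cd81 and Tspan3 had -0.35, 0.19 and 0.13.

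Of the Ly6 family, 19 genes were tested beside Ly6d and Psca. Both DKO libraries were below both controls in 6 of them and above in 7, the median difference was 0.13, and limma called 0, with 4 lower and 2 higher at an unadjusted p under 0.05. Ly6c2, a marker of monocytes, was at 0.381 and 0.0862 FPKM in the DKO pair, against 1.77 and 2.41 FPKM in the controls (log2 difference -1.84, SE 0.317, adjusted p = 0.365 from limma). Plaur, the urokinase receptor, had a difference of 0.94. The abundant Ly6a and Ly6e had -0.53 and -0.57, and Cd59a had 0.51. Psca and Ly6d are neighbours on chromosome 15, with 44986 bases between them.

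Of the named markers of the other cell types, the collecting duct genes Aqp2, Avpr2, Calb1 and Epcam had differences of 0.48, -0.72, 0.65 and 0.39. Acta2, Myh11, Tagln, Smtn and Myocd of the ureter wall had 1.43, 1.65, 0.64, 0.11 and -0.24. Without control replicate 1, the shallowest library, the values of Acta2, Myh11 and Tagln were 0.36, 0.63 and 0.21. Those of the leukocyte genes Ptprc, Cd68, C1qa, C1qb and C1qc were -0.51, -1.59, -1.36, -1.42 and -1.57 (-0.19, -1.002, -0.83, -0.89 and -0.98 without control replicate 1), and those of the stroma genes Col1a1, Col1a2, Col3a1 and Meis1 were 1.42, 1.34, 1.42 and 0.39.

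In the mm10 annotation of GENCODE M21, the uroplakin genes lie on different chromosomes. Upk1a spans 30603092 to 30612847 on the minus strand of chromosome 7, Upk1b 38773184 to 38800328 on the minus strand of chromosome 16, and Upk2 44452715 to 44454976 on the minus strand of chromosome 9. Upk3a spans 85017141 to 85022547 on the plus strand of chromosome 15 and Upk3b 136038496 to 136046487 on the plus strand of chromosome 5. Trp63 spans 25683763 to 25892102 on the plus strand of chromosome 16. The remaining 3 genes share chromosome 15 with Upk3a, Psca from 74714839 to 74717069 on the plus strand, Ly6d from 74762056 to 74763620 and Krt5 from 101707070 to 101712898 on the minus strand. No other gene is annotated over the uroplakins, Ly6d or Psca, while Krt5 overlaps 1 gene on the opposite strand and Trp63 overlaps 2 genes, 1 of them on its own strand.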

How the data were processed

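RNA of DBA-positive cells from E18.5 kidneys was sequenced as 4 strand-specific, poly(A)-selected libraries. Reads were aligned by the authors to mm10 and the Ensembl transcriptome, and FPKM were deposited for each gene. TopHat 1.4.1 and Cuffdiff 2.2.1 are listed in the submitters' processing notes. No source used here states the scaling between libraries. The authors' group means were not used, and 2 empty lines of the table were left out.

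FPKM are not counts, so genes were tested two-sided with limma 3.58.1 (R 4.3.3) on log2(FPKM + 0.5) with a variance trend, keeping genes with a mean above 0.1 FPKM in at least 1 group. A call needed an adjusted p under 0.05 and a fold of at least 2, thresholds taken from the methods of the paper. The paper reported far more changed transcripts at these thresholds. Counts called here hold for the limma fit and are not those of the paper. The fit was tested on simulated data with large changes in genes well above the filter, so that test does not cover genes at low levels. Depth was estimated from steps among low FPKM. Relative depth used values up to 0.3, and library size used genes with a single transcript over 3000 bases in GENCODE M21. Fragments of a gene were FPKM times transcript length times library size. Python 3.11.15 and matplotlib 3.10.9 were used for tables and figures.

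The 9 genes, the lists and the tests were chosen with earlier results of these data known. Named list genes were those called and the 3 with the highest mean FPKM. Those with the highest and lowest difference among genes with at least 1 FPKM in a group were named too. Others are marked where they appear, save Dsg3, Dsc3, Krt13 and Krt6a. Those did not pass the filter and were also chosen after their values were seen. A gene of the adhesion list is not reported here. Replicates are separate pools of embryos. The paper calls the controls littermates of the DKO embryos, but no source used here states whether shared numbers pair the pools. Alternatives were other pseudocounts, filters, scalings and variance settings, a replicate block, and each library left out.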

Additional observations from a re-analysis of the deposited data

How the results depend on the processing

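The signs of the 9 differences held under each pseudocount, filter, scaling and variance setting tried, and 2 of them turned with a library left out. The log2 difference of Upk1a ranged from -1.20 to 0.0693 and that of Upk3b from -0.32 to 1.72 with a library left out. The count of 4 genes called by limma became 2 without a variance trend, 0 with no filter on low values, 16 with a replicate block (10 lower and 6 higher), and 0 with any 1 library left out. The deviations of DKO replicate 1 and control replicate 1 from their group means had a correlation of 0.105 over 18884 genes. That correlation does not settle whether shared numbers pair the pools, so the block is given only as an alternative. Rescaling to TPM moved the median of all genes by 0.122, so TPM differences are relative to that shift. With TPM, Krt8, Krt18 and Gpm6a stood at 0.11, 0.0944 and 0.10. With a library left out, the ranges that crossed 0 among the other named genes were as follows.
They were -0.50 to 0.0422 for Rab11a, -0.0197 to 0.0257 for Rxra, -0.18 to 0.47 for Elf3, -0.0157 to 0.58 for Klf5, -0.76 to 0.10 for Krt7, -0.45 to 0.41 for Krt8, -0.33 to 0.25 for Krt18, -0.0491 to 0.51 for Itga3, -0.20 to 0.14 for Gpm6a, -0.14 to 0.32 for Rspo1, -0.13 to 0.35 for Smtn, -0.71 to 0.23 for Myocd and -0.15 to 1.11 for Aqp2. The DKO levels of Krt5, Ly6d and Psca rest on about 1.05 to 5.26 fragments per library. Fragments were not estimated for the listed genes, so the depth behind their low values is not given.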
